A study of Homo sapiens with 8 samples.

Results

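The data described here are the ribosome footprint densities of HEK293T cells in methionine-deficient medium (Met-) and in sufficient medium (Suff), both collected after pretreatment with cycloheximide (CHX). Each library was deposited as RPKM per Ensembl transcript, that is, reads on a coding sequence divided by its length and by the reads on all coding sequences of the library. The highest transcript of each gene symbol was taken, and the genes were those listed in both libraries. This gave 1892 genes, of 5466 listed in Suff, 2021 listed in Met- (34.6% of the Suff genes were listed in Met-) and 12235 listed in any of the 8 libraries of the series. A gene not listed in Met- was not read as 0.

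In ribosome profiling, mRNA outside ribosomes is digested and the protected footprints are sequenced, so that the footprint density on a coding sequence measures the ribosomes on that mRNA relative to those on the other mRNAs of the cell. It combines mRNA abundance with the number of ribosomes per mRNA, and as a share of 1 library it carries no information on total protein synthesis. Methionine starts nearly every protein and is the precursor of S-adenosylmethionine, the methyl donor of the cell, which is made by the methionine adenosyltransferase encoded by MAT2A. Lack of an amino acid can activate kinases of eIF2, after which most initiation is slowed while the transcription factor ATF4 is made and induces genes of amino acid uptake and synthesis. It can also lower the activity of mTORC1, on which mRNAs with a 5′ terminal oligopyrimidine tract (TOP mRNAs), mostly those of ribosomal proteins, depend.

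HEK293T is a human embryonic kidney line made to express the large T antigen of SV40. The Suff medium was a custom DMEM without sulfur amino acids, histidine, leucine and arginine, to which dialyzed serum, cysteine and the missing amino acids were added back, and in Met- medium methionine was left out. The labels give an overnight deprivation, and CHX, which arrests elongating ribosomes, was given before collection. Medium lacking arginine (Arg-) or leucine (Leu-), and the same 4 media without CHX, were profiled as well, with 1 library in each of the 8 conditions. No value has a replicate error, and no difference between the media was tested. Intervals below are 95% exact (Clopper-Pearson) or Wilson intervals and cover the counting error of 1 library pair only.

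Of 12 genes fixed as HEK293T markers, 5 were listed in Suff and 4 in Met- with CHX, against 11 and 12 without CHX. Both libraries with CHX listed VIM, NEFM, HNRNPA2B1 and EEF1A1, and Suff also listed NEFL. KRT8, KRT18, INA, PAX2, LHX1, GATA3 and XPO1 were listed in neither. The genes listed in both include a splicing and a translation gene, HNRNPA2B1 and EEF1A1, so the count does not identify the line. Vimentin (VIM) was at 97.6 RPKM in Suff, 438 in Arg-, 317 in Leu- and 212 in Met- with CHX. Neurofilament medium chain (NEFM), a neuronal gene that this line is known to express, was at 19 RPKM in Suff, 33.2 in Arg-, 36.9 in Leu- and 54.1 in Met-. Of 10 genes of blood, liver, muscle, glia, pancreas and connective tissue, 9 were listed in no library, while the collagen gene COL1A1 was listed at 20.2 RPKM in Suff with CHX, was not listed in the 3 starved libraries with CHX and was between 1.59 and 4.19 RPKM in the libraries without CHX.

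Met- with CHX was the shallowest library. It held 538222 reads on coding sequences, recovered from the whole steps of the values, against 2560280 in Suff. The fewest reads on a listed transcript were 64 in each library with CHX and 5 in each library without CHX. At the median coding length, 64 reads made an RPKM of 111 in Met- and 23.3 in Suff. A gene of moderate density in Suff was therefore listed in Met- when it was relatively higher there, and the members were selected in that direction. Of 3852 genes whose Suff density was under the 64-read level of Met-, 23.3% were listed in Met-. Of 1431 genes at or above that level, 64.5% were listed. The edge of the selection can be seen in single genes. There were 59 genes within 5% above the level in Suff, of which 29 were listed in Met-, and 80 within 5% below it, of which 34 were listed. The 77 members with 64 to 66 reads in Met- ranged from 19.5 to 822 RPKM there, and their median log2 ratio was 0.50.

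Over the members, the log2 ratio of Met- to Suff, computed as log2 of the RPKM plus 1, had a median of 0.89, quartiles of -0.01 and 1.75 and a range of -3.79 to 5.54. At least 2-fold higher in Met- were 884 genes, or 46.7%, and at least 2-fold lower were 185, or 9.78%. When the ratios were taken relative to their median, 393 genes (20.8%) were at least 2-fold above it and 434 (22.9%) at least 2-fold below. For the 1746 genes whose reads were recovered on the same transcript in both libraries, the counting interval reached a median of 0.33 to either side on the log2 scale. The interval lay above 0 for 67.6% of them and below 0 for 20.2%. With each read taken as independent, counting error was small beside the spread over genes, whose SD was 1.33. File names point to removal of duplicate reads without CHX only. PCR copies may therefore be among the reads with CHX, and the intervals would then be too narrow. A choice of genes by Suff alone gave another picture. The 305 genes at or above 4 times the 64-read level of Met- could have been listed after a 4-fold fall, and 262 of them (85.9%) were listed. With each unlisted gene placed at its level, their median was -1.31. Of these 305 genes, 58.0% were at least 2-fold lower in Met- and 2.62% at least 2-fold higher. They were the abundant mRNAs with short coding sequences (median 462 nt, against 1074 nt for the members). This choice is not neutral either. Genes picked for a high value in Suff, the denominator, lean towards lower ratios, by an amount that was not tested.

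**Figure D1:**
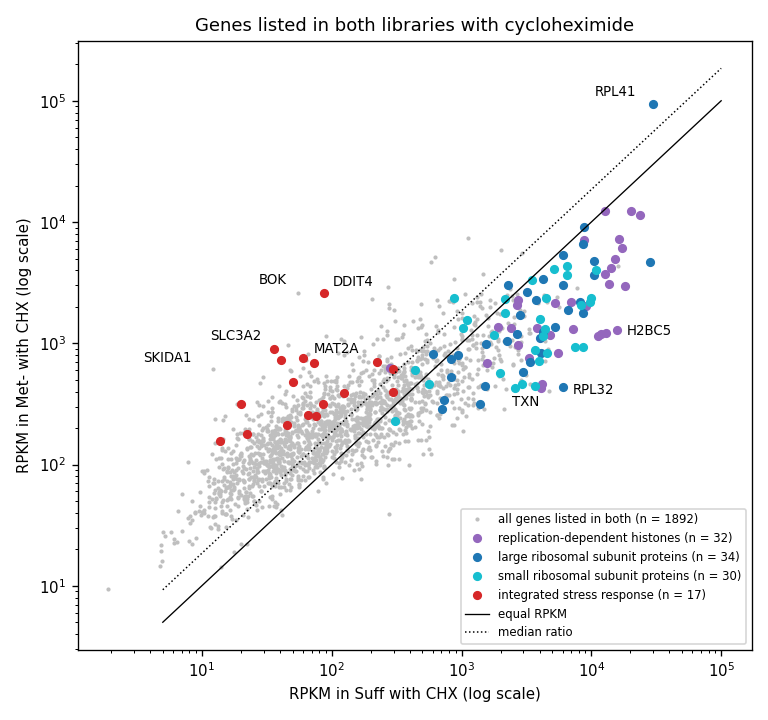
RPKM of each gene in Suff with CHX (horizontal) and in Met- with CHX (vertical), both on log axes, 1 point per gene. Integrated stress response genes (17) all lie above the line of equal RPKM, while 31 of 32 replication-dependent histones lie below it; the dotted line marks the median log2 ratio of 0.89.

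Genes of methionine metabolism were described first. MAT2A (chr2:85539168-85545281, GRCh38) was at 63.3 RPKM in Suff, 84.6 in Arg-, 83.7 in Leu- and 728 in Met- with CHX. Met- stood far above the 3 other libraries, which lay close to each other. The log2 ratio of Met- to Suff was 3.50 (counting interval 3.28 to 3.77, from 464 and 192 reads). Without CHX, MAT2A was at 249 RPKM in Suff, 85.7 in Arg-, 125 in Leu- and 1019 in Met-, with Met- again the highest and both other starved libraries under Suff. AHCY, which hydrolyses the S-adenosylhomocysteine left by methylation, was at 64.8 RPKM in Suff, 292 in Arg-, 254 in Leu- and 463 in Met- with CHX and at 383 RPKM in Suff, 353 in Arg-, 321 in Leu- and 389 in Met- without it, where Met- was close to Suff. AHCYL1, a relative of AHCY that binds the IP3 receptor, was at 38.5 RPKM in Suff, 171 in Arg-, 94.2 in Leu- and 228 in Met- with CHX. For both genes all 3 starved libraries exceeded Suff with CHX. Spermidine synthase (SRM) was at 1136 RPKM in Suff, 371 in Arg-, 426 in Leu- and 439 in Met-, lower in all 3 starved libraries, and its log2 ratio was -1.37 (-1.58 to -1.17). The methionine salvage genes MRI1 and ADI1 had log2 ratios of 0.86 and -0.81. In all, 6 of the 23 genes listed for the methionine cycle and polyamines were members. Of these, 3 were at least 2-fold higher and 1 at least 2-fold lower, with a median of 1.70, so that the share higher was near the 46.7% of all members. Without CHX the median was -0.13, with 3 higher and 3 lower. AMD1, which makes the decarboxylated S-adenosylmethionine used for polyamines, was named after its values were seen. It was at 109.7 RPKM in Suff, 93.3 in Arg-, 68.5 in Leu- and 379.7 in Met- without CHX, the highest in Met-, and with CHX it was listed at 78 RPKM in Suff and not listed in Met-, where its density in Suff would have made fewer than 64 reads.

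The genes of the integrated stress response, which includes the targets of ATF4, were higher as a group in Met- than in Suff. Of 42 genes on the list, 26 were listed in Suff and 17 in both libraries. Of the 17 members, 16 were at least 2-fold higher, against 46.7% of all members, and none was lower, and the median log2 ratio was 2.94 against 0.89 over all members. Relative to that median, 11 of the 17 were at least 2-fold above it and none was 2-fold below. Because no gene of the list was abundant enough in Suff to be listed after a 4-fold fall, a count over members cannot show the genes that were lower. Of 21 listed in Suff below the 64-read level of Met-, which could be listed there only with a raised ratio, 12 were listed in Met-, against 23.3% of all such genes. As a share of all reads on coding sequences, the listed genes took 0.228% in Suff (Wilson interval 0.222 to 0.234, 26 genes) and 1.09% in Met- (1.06 to 1.12, 17 genes). The share was 0.930% in Arg- (37 genes) and 0.845% in Leu- (38 genes). Over the same 17 members the median log2 ratio to Suff was 2.50 in Arg- and 2.16 in Leu-, with 13 and 15 at least 2-fold higher. Met- was the highest of the 4 libraries for 12 of 17 with CHX, against 62.3% of all genes. Without CHX it was the highest for 6 of 16, against 41.6%.

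DDIT4 (chr10:72273919-72276036), an inhibitor of mTORC1 signalling, was at 87.5 RPKM in Suff, 499 in Arg-, 622 in Leu- and 2605 in Met- with CHX. Its log2 ratio of 4.88 (4.65 to 5.15) was the highest of the list. Without CHX it was at 184 RPKM in Suff, 798 in Arg-, 699 in Leu- and 1124 in Met-, so that Met- was the highest library in both series. SESN2, which encodes a leucine-binding inhibitor of mTORC1 activation, was at 20.1 RPKM in Suff, 158 in Arg-, 157 in Leu- and 316 in Met- with CHX and had a log2 ratio of 3.91 (3.60 to 4.37). ATF4 itself was at 76 RPKM in Suff, 157 in Arg-, 342 in Leu- and 251 in Met-, higher than Suff in each starved library and highest in Leu-. CEBPB, a bZIP partner of ATF4, was at 65.3 RPKM in Suff, 115 in Arg-, 180.2 in Leu- and 257 in Met-, and XBP1, a transcription factor of the unfolded protein response, at 85.3 RPKM in Suff, 376 in Arg-, 350.3 in Leu- and 313 in Met-. Both were higher in every starved library than in Suff. The secreted glycoprotein gene STC2 was at 50.4 RPKM in Suff, 322 in Arg-, 429 in Leu- and 476 in Met- and had a log2 ratio of 3.21. Genes of the list that Met- did not list included, named after their values were seen, ATF3, at 68.3 RPKM in Suff, 1045 in Arg- and 310.3 in Leu-, and TRIB3, at 26.9, 104 and 127 RPKM in the same order.

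Enzymes that supply nonessential amino acids and one-carbon units formed a second group within that list. Asparagine synthetase (ASNS, chr7:97851677-97872542) was at 22.3 RPKM in Suff, 618 in Arg-, 262 in Leu- and 178 in Met- with CHX. Its ratio of Met- to Suff was 2.94 (2.62 to 3.38), while Arg- and Leu- lay above Met-. SHMT2, the mitochondrial enzyme that takes a one-carbon unit from serine, was at 40.8 RPKM in Suff, 378 in Arg-, 298 in Leu- and 732 in Met-, with Met- the highest and a log2 ratio of 4.13 (3.91 to 4.43). PHGDH, the first enzyme of serine synthesis, was at 73.1 RPKM in Suff, 525 in Arg-, 389 in Leu- and 690.1 in Met-, and PSAT1, the next, at 125 RPKM in Suff, 838 in Arg-, 1006 in Leu- and 390.0 in Met-. For PSAT1, Arg- and Leu- exceeded Met- as they did for ASNS. GPT2, a mitochondrial alanine transaminase, had a log2 ratio of 2.20. PYCR1, which makes proline, had one of 1.06. MTHFD2, a mitochondrial folate enzyme, was at 297 RPKM in Suff, 458 in Arg-, 678 in Leu- and 398 in Met-, and its log2 ratio of 0.42 was the lowest of the 17 members and lay below the median of all members. Over the 7 members among 16 one-carbon and serine genes, some of which are also on the stress response list, the median was 1.63 with 5 at least 2-fold higher and none 2-fold lower. Of all members, 46.7% were at least 2-fold higher and 9.78% at least 2-fold lower. In Suff, 3 of the 7 lay below the 64-read level of Met-. Thymidylate synthase (TYMS), which uses a folate one-carbon unit, was the lowest at -0.22.

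Of 20 amino acid transporter genes, 9 were listed in Suff and 5 were members, with a median of 3.41. Of these members, all but SLC38A10 are also on the stress response list. All 5 were at least 2-fold higher, against 46.7% of all members, but 4 of them lay below the 64-read level of Met- in Suff and could become members only with a raised ratio. SLC3A2 (chr11:62856004-62888880), the heavy chain shared by heteromeric transporters, was at 35.7 RPKM in Suff, 310.1 in Arg-, 169 in Leu- and 901 in Met- with CHX and at 89.4 RPKM in Suff, 397 in Arg-, 345 in Leu- and 406 in Met- without it. Its log2 ratio with CHX was 4.62 (4.42 to 4.90). Its light chain SLC7A5, a carrier of large neutral amino acids including methionine, was at 224 RPKM in Suff, 186 in Arg-, 329 in Leu- and 695 in Met-. The glutamine carrier SLC1A5 was at 60.2 RPKM in Suff, 195 in Arg-, 189 in Leu- and 762 in Met- and the cationic amino acid carrier SLC7A1 at 13.9 RPKM in Suff, 117 in Arg-, 52 in Leu- and 158 in Met-. SLC38A10 was at 8.84 RPKM in Suff, 8.15 in Arg-, 12.9 in Leu- and 40.4 in Met-. Met- was the highest of the 4 libraries for 5 of 5 of these genes with CHX and for 5 of 5 without CHX, where the log2 ratios of Met- to Suff ran from 0.44 to 2.27. Over all genes listed in the 4 libraries with CHX, Met- was the highest for 62.3%, and without CHX for 41.6%. SLC38A2, a transporter known to be induced by amino acid lack, was listed in Suff at 31.9 RPKM, in Arg- at 302 and in Leu- at 85.7, and was not listed in Met-. Its density in Suff lay below the 64-read level of Met-, so its absence does not show that it was not higher in Met-. The last gene was named after its values were seen.

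Cytosolic aminoacyl-tRNA synthetases, which charge tRNAs and include known targets of ATF4, had 13 members among 23 genes. Of these, 10 were at least 2-fold higher and none 2-fold lower, with a median of 1.34, and 11 of 13 lay above the median of all members, of which 46.7% were at least 2-fold higher. In Suff, 9 of the 13 lay below the 64-read level of Met- and could become members only with a raised ratio. Without CHX the median was 0.87 and 10 of 13 were higher. Methionyl-tRNA synthetase (MARS1) had the highest ratio, at 28.6 RPKM in Suff, 212 in Arg-, 116 in Leu- and 263 in Met- with CHX and a log2 ratio of 3.16 (2.88 to 3.53). Tyrosyl-tRNA synthetase (YARS1) was at 125 RPKM in Suff, 682 in Arg-, 482 in Leu- and 1042 in Met-. The scaffold protein AIMP2 was at 288 RPKM in Suff, 363 in Arg-, 228 in Leu- and 147 in Met- and had the lowest ratio, -0.96. Met- was the highest library for 3 of the 13, which is a smaller share than over all genes. The coding sequences of these genes are long, with a median of 1759.5 nt, and relative to genes of the same decile of coding length their median was -0.20. On the same scale the median was 1.46 for the stress response genes and 1.79 for the transporters, which stayed above genes of like length. The stress response and transporter lists share most of the transporter members and are not separate results.

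ATF4 binds, with a C/EBP partner, DNA elements of the form TGATGNAA. The RefSeq promoters of these genes, which run from 250 bases before to 50 bases after each annotated start on GRCh38.p14, were searched for this motif on both strands. It was found in 4.46% of all 27305 promoters and in 2.21% of the 1540 members with a promoter in the table. It was found in 4 of 10 synthetase genes, 3 of 5 transporter genes and 4 of 14 stress response genes among the members. The 4 stress response genes were ASNS and the same 3 transporter genes. Among one-carbon and serine members it was found in 0 of 6, and among methionine cycle and polyamine members in 0 of 6. The matches below, each with up to 9 bases on either side, are shown because they are those of the synthetase and transporter members and of ASNS; capitals mark the motif, and each is written 5′ to 3′ on the strand that carries it.
SLC1A5: ggaagtggcTGATGCAAgctgtccag
ASNS: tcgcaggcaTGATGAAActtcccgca
GARS1: ctcggagcaTGATGAAAtcgccgcgt
IARS1: gcacggaggTGATGCAAcgcgctgaa
MARS1: atccctcgcTGATGCAAccggaaccg
TARS1: tggaccagcTGATGCAAtcgaaaggc
SLC7A1: gcgcactgcTGATGAAAcctggcgcc
SLC3A2: ggagcTGATGTAAggagtcctg
The SLC1A5 match (chr19:46784895-46784920, minus strand) began 97 bases before the annotated start, and that of ASNS (chr7:97872460-97872485, minus strand) 68 bases before it. Those of GARS1 (chr7:30594836-30594861, minus strand) and IARS1 (chr9:92293694-92293719, plus strand) also lay upstream, while those of MARS1 (chr12:57488055-57488080, minus strand), TARS1 (chr5:33440958-33440983, minus strand), SLC7A1 (chr13:29595665-29595690, minus strand) and SLC3A2 (chr11:62881727-62881748, minus strand; cut at the end of the promoter sequence) overlapped or followed the start. The log2 ratios of the synthetase genes not valued above were 0.91 for GARS1, 1.43 for IARS1 and 2.36 for TARS1. A match describes the sequence and not binding.

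**Figure D2:**
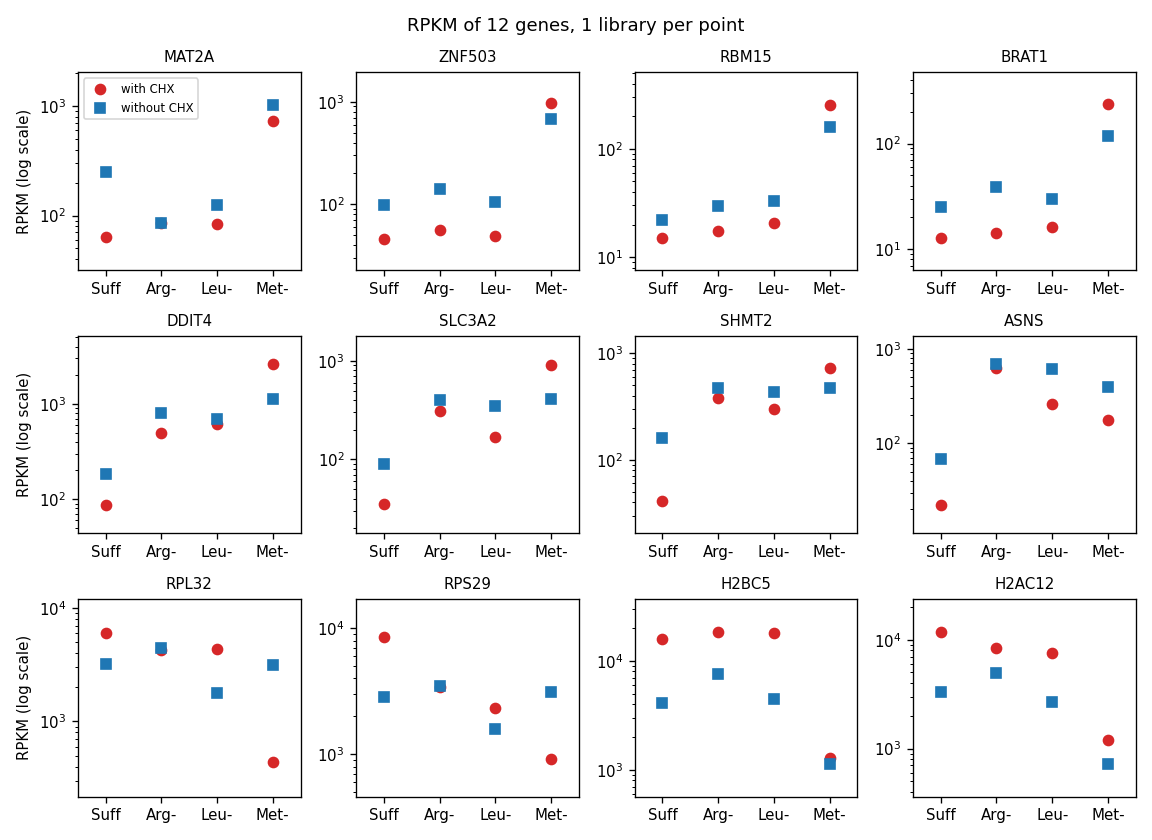
RPKM (log axis) of 12 genes in each of the 8 libraries, 1 library per point, red circles with CHX and blue squares without CHX. MAT2A, ZNF503, RBM15 and BRAT1 are high in Met- alone, DDIT4, SLC3A2, SHMT2 and ASNS are above Suff in each starved library, and the histones H2BC5 and H2AC12 are lowest in Met- in both series, which RPL32 and RPS29 are not.

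Among single members, the 12 highest log2 ratios ran from 3.91 to 5.54 and belonged to BOK, SKIDA1, DDIT4, SLC3A2, ZNF503, SHMT2, BRAT1, CTU1, DUSP2, ZNF48, RBM15 and SESN2. BOK (chr2:241551424-241574131), a member of the BCL2 family of apoptosis regulators, was at 55.3 RPKM in Suff, 259.5 in Arg-, 51.1 in Leu- and 2620.4 in Met- with CHX and had a log2 ratio of 5.54 (5.25 to 5.90). SKIDA1 was at 12.2 RPKM in Suff, 34.9 in Leu- and 615 in Met-, and was not listed in Arg-. Neither was seen in this way without CHX, where BOK was not listed in Suff or Met- and SKIDA1 was at 1.72 RPKM or less in 3 libraries and not listed in Met-. The phosphatase gene DUSP2 was at 28.2 RPKM in Suff, 14 in Arg-, 26.9 in Leu- and 469 in Met- with CHX and was listed without CHX in Suff only. ZNF503 (chr10:75397830-75401764), a zinc finger repressor of transcription, was at 45.7 RPKM in Suff, 56 in Arg-, 49.4 in Leu- and 965 in Met- with CHX and 99.1 RPKM in Suff, 142 in Arg-, 106 in Leu- and 683 in Met- without it. RBM15, an RNA-binding part of the complex that methylates adenosines in mRNA, was at 15.2 RPKM in Suff, 17.5 in Arg-, 20.7 in Leu- and 254 in Met- with CHX and at 22 RPKM in Suff, 29.4 in Arg-, 33.2 in Leu- and 158 in Met- without it. BRAT1, a protein that binds BRCA1 and ATM, was at 12.7 RPKM in Suff, 14.3 in Arg-, 16.3 in Leu- and 236 in Met- with CHX and at 25.3 RPKM in Suff, 38.8 in Arg-, 29.8 in Leu- and 117 in Met- without it. In both series each of these 3 genes was several times higher in Met- than in any other library. CTU1, which thiolates tRNAs, was at 29.6 RPKM in Suff, 40.2 in Leu- and 525 in Met-. ZNF48, a zinc finger gene, was at 18.7 RPKM in Suff, 15.3 in Arg-, 19 in Leu- and 316 in Met-.

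Ribosomal protein mRNAs lay at the other end. Of 34 large subunit genes among 50, 20 were at least 2-fold lower and 1 at least 2-fold higher, and the median log2 ratio was -1.13. Of 30 small subunit genes among 34, 16 were at least 2-fold lower and 1 at least 2-fold higher, with a median of -1.40. Of all members, 9.78% were at least 2-fold lower and 46.7% at least 2-fold higher. RPL32 (chr3:12834485-12841582) was at 6034 RPKM in Suff, 4239.7 in Arg-, 4331 in Leu- and 436 in Met- with CHX and had the lowest log2 ratio of all members with recovered reads, -3.79 (-4.10 to -3.50). Without CHX it was at 3205 RPKM in Suff, 4459 in Arg-, 1787 in Leu- and 3122 in Met-, where Met- and Suff were close. RPS29 was at 8577 RPKM in Suff, 3453 in Arg-, 2336 in Leu- and 924 in Met- with CHX and at 2849 RPKM in Suff, 3512 in Arg-, 1595 in Leu- and 3124 in Met- without it. RPS15 was at 7496 RPKM in Suff, 2847 in Arg-, 1494 in Leu- and 929 in Met- and RPS15A at 3694 RPKM in Suff, 2787 in Arg-, 1594 in Leu- and 448 in Met-. In these genes, named for their low ratios, Suff with CHX was the highest and Met- the lowest of the 4 libraries. The groups did not share this throughout. Met- with CHX was the lowest for 16 of 34 large and 14 of 30 small subunit genes, against 14.2% of all genes listed in the 4. Without CHX it was the lowest for 7 of 33 and 2 of 29, against 19.9% of all genes. RPL37A and RPS28, among the densest in Suff, had log2 ratios of -2.60 and -1.44. The members at least 2-fold higher were RPL41, the shortest coding sequence listed, at 30096 RPKM in Suff, 15166 in Arg-, 13733 in Leu- and 94013 in Met-, and RPS9, at 881 RPKM in Suff, 976 in Arg-, 581 in Leu- and 2344 in Met-, whose highest transcript was not the same in both libraries.

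Ribosomal protein mRNAs were also lower, as groups, in the other starved libraries. Over the same genes, the median log2 ratio of the large subunit was -0.57 in Arg-, -1.14 in Leu- and -1.13 in Met-. For the small subunit it was -0.68, -1.27 and -1.40, in the same order. All of these share the Suff library, in which the large subunit genes took 7.59% of the reads (47 genes), against 3.83% in Met- (34 genes). Without CHX the medians of Met- against Suff were -0.57 over 33 genes and -0.42 over 29, with 31 and 27 of them lower and 3 and 2 at least 2-fold lower. Their coding sequences are short (medians of 447 and 454 nt), and relative to genes of the same decile of coding length the medians with CHX were -1.10 and -0.99. Reads shared with near-identical copies were dropped, so single values of these genes are uncertain.

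The other TOP mRNAs, those of translation factors and of other genes such as TPT1 and VIM, had higher ratios than the ribosomal protein mRNAs with CHX. Of 10 members among 17 genes, 6 were at least 2-fold higher and 1 at least 2-fold lower, and the median was 1.06. Over all members the shares were 46.7% and 9.78% and the median 0.89, so these counts were near those of all members. Relative to genes of like coding length the median of the 10 was 0.03. Without CHX their median was -0.53 and 6 of 10 were lower, close to the ribosomal protein medians there. Elongation factor EEF2 was at 229.9 RPKM in Suff, 616 in Arg-, 606 in Leu- and 784 in Met-, and TPT1 at 944 RPKM in Suff, 395 in Arg-, 355 in Leu- and 465 in Met-. EEF1A1 was at 203 RPKM in Suff, 1135 in Arg-, 514 in Leu- and 2334 in Met- with CHX and 3764 RPKM in Suff, 5936 in Arg-, 3545 in Leu- and 5950.1 in Met- without it. In Suff it was far lower with CHX than without it, and its highest value with CHX was in Met-; near-identical copies of this gene make its unique reads uncertain. EEF1B2, a nucleotide exchange factor for eEF1A, had a log2 ratio of -0.50. Among 15 members of the 38 initiation factor genes, 2 were at least 2-fold higher and 2 lower, with a median of -0.02. EIF1, which guards start codon selection, was at 1808 RPKM in Suff, 3833 in Arg-, 1679 in Leu- and 444 in Met-. EIF5A was at 2824 RPKM in Suff, 1983 in Arg-, 3102 in Leu- and 1878 in Met-, and EIF3A, a core subunit of eIF3, had the highest ratio of the factors, 1.80.

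Replication-dependent histone mRNAs, which are made in S phase and end in a stem loop instead of a poly(A) tail, were among the lowest groups. Of 32 members among 59 genes, 24 were at least 2-fold lower and 1 at least 2-fold higher, with a median log2 ratio of -1.65. Over all members the shares were 9.78% lower and 46.7% higher. Among genes chosen by Suff at 4 times the 64-read level of Met-, with unlisted ones at their level, the median was -1.76, close to -1.78 for the large and -1.78 for the small ribosomal subunit. H2BC5 (chr6:26158122-26171349) was at 15665 RPKM in Suff, 18484 in Arg-, 17983 in Leu- and 1293 in Met- with CHX and at 4121 RPKM in Suff, 7559 in Arg-, 4419 in Leu- and 1141 in Met- without it. H2AC12 was at 11892 RPKM in Suff, 8324 in Arg-, 7624 in Leu- and 1185 in Met- with CHX and at 3333 RPKM in Suff, 4903 in Arg-, 2665 in Leu- and 724 in Met- without it. H3C12 was at 4061 RPKM in Suff, 3949 in Arg-, 3112 in Leu- and 428 in Met- with CHX and at 1445 RPKM in Suff, 3385 in Arg-, 1411 in Leu- and 259.6 in Met- without it. In all 3 genes Met- was far below every other library in both series. H2AC11, H2BC4, H2AC16 and H2BC26 had log2 ratios of -3.40, -3.29, -3.19 and -2.87 with CHX. The densest genes in Suff, H3C2 and H4C3, differed less, with log2 ratios of -1.03 and -0.72.

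The histone mRNAs as a group were not lower than Suff in the other starved libraries, though the difference between the media was not tested. Over the same 32 genes, all against the 1 Suff library, the median log2 ratio was 0.32 in Arg-, 0.24 in Leu- and -1.65 in Met-. Met- was the lowest of the 4 libraries with CHX for 31 of the 32, against 14.2% of all genes listed in the 4. Without CHX, where no library is shared with the first series, it was the lowest for 29 of 32, against 19.9% of all genes. The share of reads on these genes was 11.9% in Suff (45 genes), 16.5% in Arg- (45 genes), 14.4% in Leu- (47 genes) and 4.3% in Met- (32 genes; Wilson interval 4.25 to 4.36), where genes under 64 reads are left out of the sum. Without CHX the median ratio was -1.14, and 20 of 32 were at least 2-fold lower. These coding sequences are short and nearly identical between copies, and relative to genes of the same decile of coding length the median with CHX was -1.14. Of the replication-independent histones, 5 of 7 were members, all were lower, and the median was -1.15. H2AZ1 and H2AX had log2 ratios of -1.48 and -0.83. Among genes of DNA replication, 8 of 14 members were at least 2-fold higher and 2 at least 2-fold lower, near the 46.7% and 9.78% of all members, with a median of 1.30. MCM5, a subunit of the replicative helicase, was at 24.7 RPKM in Suff, 78 in Arg-, 81.9 in Leu- and 178 in Met-, and PCNA, the sliding clamp of DNA polymerase, at 374 RPKM in Suff, 1016 in Arg-, 591 in Leu- and 183 in Met-. RFC2, a subunit of the clamp loader, had the lowest log2 ratio, -1.07, and RPA3, which binds single-stranded DNA, one of -0.62.

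Genes listed in 1 of the libraries can be given only by bounds, which hold if every transcript with 64 reads or more was listed. Of the genes listed in Suff and not in Met-, 43 were at 4 times the 64-read level of Met- or more. The largest bound was that of MT-ND5, a subunit of respiratory complex I made in mitochondria, at 1749 RPKM in Suff, so that it was at least 26.6-fold lower in Met-. It was at 1824 RPKM in Arg- and 1207 in Leu-. The other 9 with the largest bounds were H2BC12L, RPL14, ATP5MC3, H2BC18, RPL34, TMSB10, UQCR10, UQCRB and GLO1, which were at least 7.12-fold to 17.1-fold lower. They are histone and ribosomal protein genes, genes of ATP synthase and respiratory complex III, the actin-binding thymosin gene TMSB10 and the glyoxalase gene GLO1. Without CHX, MT-ND5 was at 142 RPKM in Suff and 80.9 in Met-, a smaller difference. H2BC12L was higher in Met- there, at 640 RPKM in Suff and 830 in Met-. Of the 42 of these 43 genes that both libraries without CHX listed, 38 were lower in Met- there too, against 46.1% of the members. Conversely, 126 genes listed in Met- and not in Suff had a coding length, and by the difference in depth each was at least 4-fold higher in Met-. The largest bounds were those of LIPM, at least 18.8-fold, the RNA helicase gene DDX28, at least 16.4-fold, and DUSP1, a phosphatase of MAP kinases, at least 16.1-fold, followed by OS9, BLOC1S3, IER2, COX15, SAFB2, ZNF316 and ZNHIT6. LIPM was listed in no library without CHX, while DUSP1 was at 28 RPKM in Suff, 116 in Arg-, 50.2 in Leu- and 157 in Met- and DDX28 at 20.6 RPKM in Suff, 32.5 in Arg-, 21.4 in Leu- and 79.9 in Met- there, with Met- the highest for both. Of 122 such genes listed in both libraries without CHX, 114 were higher in Met- there, against 53.9% of the members.

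Other gene groups are given by their counts. Short-lived transcription regulators had 6 members among 17 genes, 5 of them at least 2-fold higher and 1 lower, with a median of 1.71. Over all members the shares were 46.7% and 9.78%, and 4 of the 6 lay below the 64-read level of Met- in Suff. ID1, an inhibitor of bHLH factors, was at 117 RPKM in Suff, 68.3 in Arg-, 170.4 in Leu- and 1085 in Met-, and its relatives ID3 and ID2 had log2 ratios of 1.34 and -1.09. Of nucleolar ribosome biogenesis factors, 15 of 24 members were at least 2-fold higher and none 2-fold lower, with a median of 1.35, which is 0.13 relative to genes of like coding length. Over all members 46.7% were at least 2-fold higher, 16 of these 24 lay below the 64-read level of Met- in Suff, and without CHX the median was -0.18 with 13 of 22 lower. NOP2, a methyltransferase of ribosomal RNA, was the highest of them, at 14.7 RPKM in Suff, 53.3 in Arg-, 26.2 in Leu- and 235 in Met-, and EBNA1BP2 the lowest, with a log2 ratio of -0.86. The snoRNP methyltransferase FBL and its partner NHP2 had log2 ratios of 0.99 and -0.31. Of 10 methyltransferase members among 29 genes, 5 were at least 2-fold higher and 1 at least 2-fold lower, with a median of 1.07; over all members the shares were 46.7% and 9.78%. The protein arginine methyltransferase PRMT1 was at 562 RPKM in Suff, 695 in Arg-, 537 in Leu- and 133 in Met- with CHX and 544 RPKM in Suff, 390.0 in Arg-, 356 in Leu- and 111 in Met- without it, the lowest in Met- in both series. The histone lysine methyltransferase EHMT2 was at 6.58 RPKM in Suff, 15.4 in Arg-, 15.1 in Leu- and 41.1 in Met- with CHX. The direction of some of these groups turned when genes were chosen by Suff at 2 times the 64-read level of Met-, which left few of each: the medians were then -0.50 for methyltransferases, -0.53 for nucleolar factors, -1.15 for the methionine cycle, -0.96 for the synthetases, -1.03 for DNA replication and -0.36 for the citric acid cycle described below. A choice by high density in Suff itself leans towards lower ratios.

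Nuclear genes of oxidative phosphorylation had 40 members among 73, of which 16 were at least 2-fold lower and 8 at least 2-fold higher, with a median of -0.22. Over all members the shares were 9.78% lower and 46.7% higher. ATP5ME and NDUFA1 had log2 ratios of -2.38 and -1.16, while UQCRH was at 586 RPKM in Suff, 379.6 in Arg-, 656 in Leu- and 4651 in Met-. Without CHX, UQCRH was at 318 RPKM in Suff, 205 in Arg-, 197 in Leu- and 251 in Met-, with Met- below Suff. Of the 13 mitochondrially encoded genes, 7 were listed in Suff and 1, MT-CO1, in Met-. Proteasome genes had 21 members among 36 and a median of -0.45; PSMA7 and PSMB5 had the lowest and the highest log2 ratios, -2.44 and 1.87. PSMB1 and PSMB2 had log2 ratios of -0.35 and -1.26. Genes against oxidative stress had 10 members among 23, a median of -0.10 and 3 at least 2-fold lower, against 9.78% of all members. Thioredoxin (TXN) was at 4696 RPKM in Suff, 2357 in Arg-, 4258 in Leu- and 401 in Met-, with a log2 ratio of -3.55 (-3.92 to -3.20). The superoxide dismutase gene SOD1 and the mitochondrial thioredoxin reductase gene TXNRD2 had log2 ratios of -1.35 and 2.01.

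Glycolysis genes had 9 members among 18, 5 at least 2-fold higher (over all members, 46.7%) and none 2-fold lower, with a median of 1.30, and without CHX 7 of 8 were lower in Met-. ENO1, the highest, was at 250.5 RPKM in Suff, 2285 in Arg-, 1416 in Leu- and 1095 in Met- with CHX, above Suff in all 3 starved libraries, and TPI1, the lowest, had a log2 ratio of -0.69. Citric acid cycle genes had 6 members among 18 and a median of 1.32, with DLST highest at 2.18, IDH3G lowest at 0.32, and IDH3B and MDH2 at 1.65 and 0.98 on the log2 ratio scale. Heat shock chaperones (8 of 19), the CCT chaperonin and prefoldin (8 of 15), endoplasmic reticulum folding genes (10 of 21), cyclins and mitotic genes (8 of 30) and cholesterol and fatty acid synthesis genes (6 of 28) had medians between 0.74 and 0.90, around that of all members. Relative to genes of like coding length the medians were -0.84, -0.72, -0.59, -0.33 and 0.07 in the same order. Without CHX, 7 of 8, 7 of 8, 7 of 9, 6 of 8 and 5 of 6 were lower in Met-, against 46.1% of the members. In these lists the extremes were HSPA9 and STIP1 (log2 ratios of 1.67 and 0.24), CCT7 and PFDN2 (2.16 and -2.35), CANX and MANF (2.23 and -0.69), and CDK6 and CDK4 (1.59 and 0.01). DHCR7, an enzyme of cholesterol synthesis, had the highest log2 ratio of its list, 3.03. The denser genes HSF1, TRAP1, VBP1, CALR, BIRC5 and EBP had log2 ratios of 0.49, 1.67, -1.99, 0.99, 0.91 and 0.42. Splicing proteins of the hnRNP and SR families (20 of 28) had a median of 0.57, from -0.80 for SRSF9 to 3.66 for HNRNPK, with HNRNPAB and SRSF1 at -0.16 and -0.17. The mTORC1 pathway (6 of 37) had a median of 0.36, with SESN2 highest, and the translation repressor EIF4EBP1 at -0.72 and the Ragulator subunit LAMTOR4 at 0.27. Cytoskeletal genes (9 of 22) had a median of 0.08, and the actin-binding genes PFN1 and CFL1 had log2 ratios of -2.52 and -1.05.

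**Figure D3:**
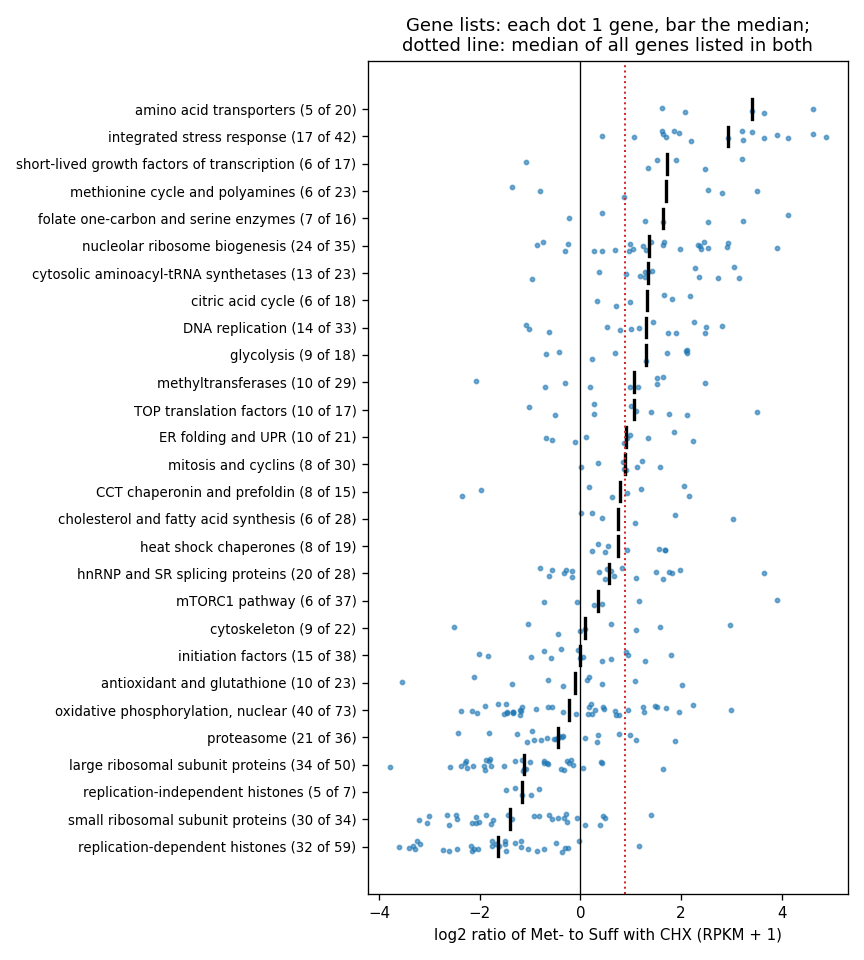
Log2 ratio of Met- to Suff with CHX for the members of each gene list with at least 5 members, 1 dot per gene, with a bar at the median; the numbers give members of genes on the list. The dotted line is the median of all members (0.89). Transporters and stress response genes, lists that share genes, lie highest, ribosomal protein and histone genes lowest.

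The ratio went with the length of the coding sequence. Spearman's correlation coefficient across 1822 members was 0.54 with CHX and, across 1768, 0.43 without CHX, given as descriptions, since genes of 1 library pair share its depth and are not replicates. The median log2 ratio with CHX was -0.63 in the decile with the shortest coding sequences (75 to 408 nt) and 1.53 in that with the longest (2463 to 13938 nt), and without CHX it was -0.45 and 0.61. Among the 262 listed genes chosen by Suff alone the coefficient was 0.37. Coding sequences of at most 500 nt took 39.9% of the listed reads in Suff, 31% in Arg-, 29.2% in Leu- and 21.8% in Met- with CHX. Without CHX the shares were 20.1%, 22.2%, 16.9% and 13.6% in the same order. Met- had the smallest share in each series. With CHX, however, the listed reads were 64.7% of all reads on coding sequences in Met-, against 87.6% in Suff, 92.0% in Arg- and 92.7% in Leu-. A short coding sequence also needs a higher RPKM to reach 64 reads. The shares with CHX therefore cover unequal parts of the libraries, and the effect of this was not tested. Without CHX the listed reads were between 93.6% and 93.9% in each library.

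Base composition went with the ratio as well. Spearman's coefficient with the GC content of the coding sequence was 0.29 with CHX and 0.09 without CHX, and after subtraction of the median of each decile of coding length it was 0.33 with CHX. The GC content of coding sequences weighted by listed reads was 57.6% in Met- with CHX and between 52% and 54.2% in the 7 other libraries. The value for Met- with CHX again rests on 64.7% of its reads on coding sequences. The part of base composition in the ratios was not tested. Spearman's coefficient with the share of methionine among the amino acids was -0.15 with CHX and -0.13 without it, a weak relation. After subtraction of the length medians it was -0.09, and among the 262 genes chosen by Suff and listed in Met- it was -0.04. For leucine and arginine, of which both media held the normal amount, the coefficient was 0.14 and 0.06.

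**Figure D4:**
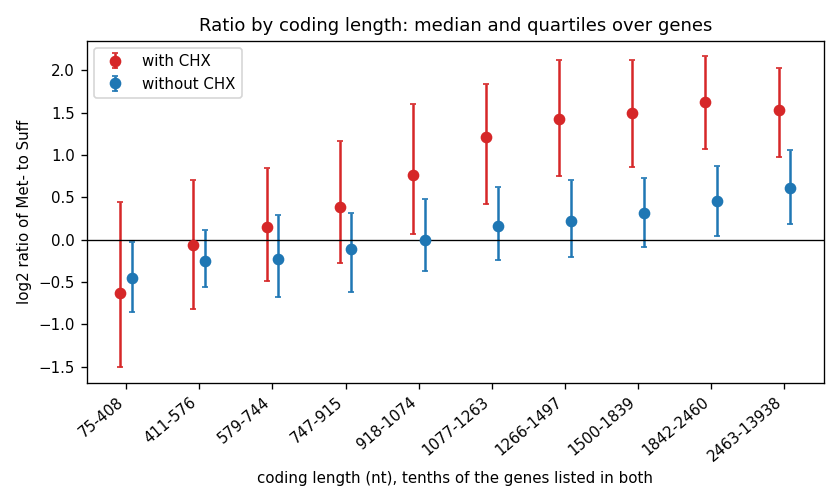
Median log2 ratio of Met- to Suff (points) with the quartiles over genes (bars) for each decile of the members by coding length, red with CHX and blue without CHX. The median is higher for long coding sequences than for short ones in both series, going from -0.63 to 1.53 with CHX and from -0.45 to 0.61 without.

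The same genes were then read in the libraries without CHX, which share no library with the pair above. Of 1811 members with a value there, 73.2% lay on the same side of the median ratio in both series. The median without CHX was 0.08, and 11.3% were at least 2-fold higher and 6.74% at least 2-fold lower. Among 843 that were at least 2-fold higher with CHX, 660 were higher and 185 at least 2-fold higher without it. Among 178 that were at least 2-fold lower with CHX, 161 were lower and 52 at least 2-fold lower without it. Over all 1811, 53.9% were higher and 46.1% lower without CHX. The stress response genes had a median of 1.54 without CHX (16 of 16 higher, 13 at least 2-fold).

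Genes for which Met- differed from the other starved media as well as from Suff were sought among 1795 members listed in all 8 libraries, by a rule chosen after the values were seen. With CHX, Met- was at least 2-fold above the highest of Suff, Arg- and Leu- for 29.0% and at least 4-fold above it for 130 genes, or 7.24%. Without CHX, 4.46% (80 genes) were at least 2-fold above the others, and 70 of these 80 were so with CHX too. Each gene had to reach 64 reads in Met- with CHX, so genes of low density elsewhere entered only with an excess there. The shares with CHX and the 70 of 80 are partly set by this selection. Of the 130 genes, 41 were at least 2-fold above the others without CHX. These 130 had a median GC content of 63.9% and 5 exons, against 57.3% and 8 exons for all 1795, and 21.6% of those with a known exon number had 1 or 2 exons, against 8.99%. Among the 70 shared genes, the largest excesses without CHX were those of MED18, a subunit of the Mediator complex, and HEXIM1, an inhibitor of the transcription elongation factor P-TEFb. MED18 was at 62.6 RPKM in Suff, 54.7 in Arg-, 58.5 in Leu- and 333 in Met- with CHX and 55.9 RPKM in Suff, 62.4 in Arg-, 59.7 in Leu- and 507 in Met- without it. HEXIM1 was at 29.4 RPKM in Suff, 19.6 in Arg-, 19.2 in Leu- and 202 in Met- with CHX and 42.2 RPKM in Suff, 29.9 in Arg-, 42.7 in Leu- and 229.6 in Met- without it. They were followed by ZNF503 and RBM15, whose values are given above, and by GEMIN4, a part of the SMN complex, at 9.95 RPKM in Suff, 9.47 in Arg-, 6.73 in Leu- and 88.7 in Met- with CHX and 24.9 RPKM in Suff, 21.5 in Arg-, 22.7 in Leu- and 109 in Met- without it. MAT2A was 8.6-fold above the highest of the other libraries with CHX and 4.1-fold without it. ASNS, in contrast, was lower in Met- than in Arg- and Leu- in both series.

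**Figure D5:**
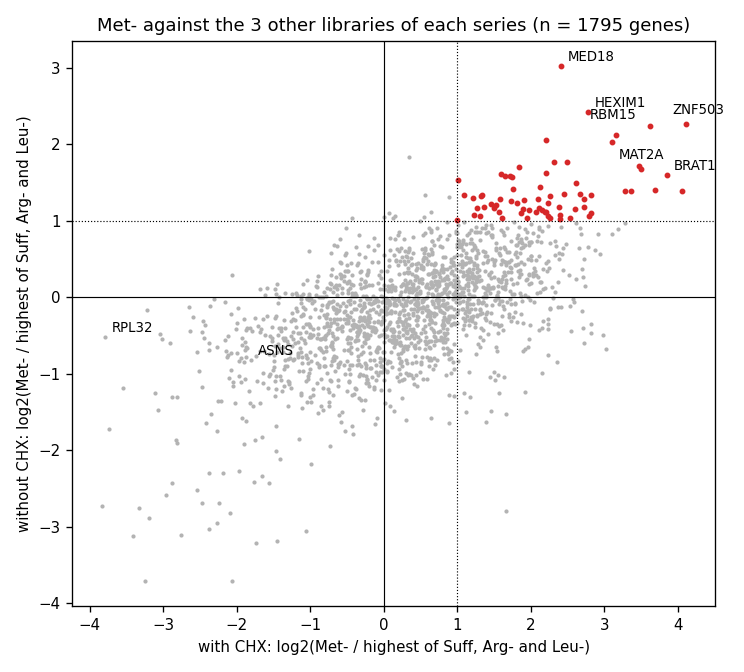
Log2 of Met- over the highest of Suff, Arg- and Leu-, with CHX (horizontal) and without CHX (vertical), for 1795 genes listed in all 8 libraries. The 70 red points were at least 2-fold above the 3 other libraries in both series, and MED18, HEXIM1, ZNF503, RBM15 and MAT2A lie farthest up among those labelled.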

How the data were processed

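Footprints were prepared by RNase I digestion of gradient fractions, poly(A) tailing and barcoded reverse transcription. The authors discarded reads outside 25 to 35 nt, trimmed low-quality bases, aligned to the human transcriptome (GRCh38) with Bowtie without mismatch and kept uniquely mapped reads; the processing notes also name cutadapt. The authors deposited RPKM per Ensembl transcript, without positions or replicates. File names point to removal of duplicates without CHX only, a step the methods do not state. PCR copies are then counted as reads with CHX, and the intervals, which cover counting error only, are then too narrow.

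Transcripts were matched to GENCODE release 44 (GRCh38; 96.4% to 96.7% matched; the others kept their identifiers). Reads were recovered from RPKM times coding length (97.1% to 97.4% of matched values were whole within 0.01 of a read), with 538222 to 6434043 reads per library. Ratios are log2 of (RPKM + 1), which understates low genes; intervals are of the read ratio without the added 1. With 1 library per condition no differential test was made; no count model was run, as it would compare 2 libraries and not the conditions. Genes named are the 12 highest and 12 lowest ratios (same transcript and recovered reads in both libraries), the 10 largest bounds each way, all members of 2 lists (stress response; methionine cycle), the extremes and the 2 densest genes of the other 27 lists, and the markers; some of these are not reported here. The members and lists were chosen with earlier results of these data known, so no list count is independent support. The scripts were tested on simulated data. Alternatives were another pseudocount, RPKM minima, summed transcripts, the same transcript, 2 rescalings, genes chosen by Suff alone and abundant families left out; subtraction of coding length medians was added after seeing the data. Promoters were taken from RefSeq (GRCh38.p14). Computations used scipy 1.17.1 (intervals, rank correlations), pandas 2.3.3 and numpy 2.4.6 under Python 3.11.15, with figures drawn in matplotlib 3.10.9.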

Additional observations from a re-analysis of the deposited data

Results flagged for a closer look

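Among the named genes, 3 were at least 2-fold different in opposite directions with and without CHX; the difference between the series was not tested. GAPDH, a glycolytic enzyme, had a log2 ratio of Met- to Suff of 1.30 with CHX (721 RPKM in Suff and 1777 in Met-) and of -1.18 without it (5279 and 2328 RPKM). MT-CO1, a mitochondrially encoded subunit of cytochrome c oxidase, had log2 ratios of -1.02 (1135 RPKM in Suff and 559 in Met-) and 1.38 (528 and 1378 RPKM). MYH9, the heavy chain of nonmuscle myosin, had log2 ratios of 2.98 (13.6 RPKM in Suff and 114 in Met-) and -2.74 (160.4 and 23.1 RPKM).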

How the results depend on the processing

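No paired analysis was possible because each condition had 1 library and no result came from a test. The overall balance depended on which genes were taken, as the listing rule of the files selects by the ratio itself. A choice by high density in Suff, the denominator, leans the other way. Against 884 genes at least 2-fold higher and 185 lower of 1892, there were 393 and 434 after centring on the median, and 302 and 290 relative to genes of like coding length, an alternative chosen after seeing the data; both set the median to 0. With genes chosen by Suff at 2 times the listing level of Met- (692 genes, unlisted ones at their level) there were 42 higher and 337 lower with a median of -0.93, and at 4 times (305 genes) 8 higher and a median of -1.31. A mean RPKM of at least 200 left 888 genes, 208 of them higher, with a median of 0.093, and one of at least 50 gave a median of 0.78. Without ribosomal protein, TOP and histone mRNAs 121 were lower and the median was 0.96; with equal sums over the listed genes it was 1.19.

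The median of the stress response genes stayed positive, at 1.06 with genes chosen by Suff at 2 times the level and at 1.46 relative to coding length. Centring moved the large subunit to -2.02, the small subunit to -2.29 and the histones to -2.54, and the length medians moved the histones to -1.14. Some other lists turned sign, and the cause was not tested. With genes chosen by Suff at 2 times the level the medians were -1.03 for DNA replication, -0.36 for the citric acid cycle, -0.96 for the synthetases, -1.15 for the methionine cycle, -0.50 for methyltransferases and -0.53 for nucleolar factors. At 4 times the level they were -1.37 for the methionine cycle and -0.54 for methyltransferases. A mean RPKM of at least 200 gave -0.62 for DNA replication and -0.30 for methyltransferases, which were at -0.053 with at least 50. Relative to coding length, the synthetases were at -0.20, methyltransferases at -0.23 and the marker NEFM at -0.071. Of 116 named genes, 88 were at least 2-fold different; 70 of these remained so after centring, 61 relative to coding length, 80 with equal sums and 87 with summed transcripts. All 88 did with a pseudocount of 0.1 and with the same transcript in both libraries. Depth limits Met- genes below 64 reads to bounds.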
